A study of Homo sapiens with 7 samples.

Results

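The peaks described here were listed by m6A-ORL, a chemical method for mapping N6-methyladenosine (m6A), in polyA RNA of HEK-293T cells and in no other library. They were chosen as the peaks of the polyA m6A-ORL list, outside the mitochondrial chromosome, whose blocks shared no base on either strand with any peak of the 3 other lists. This left 3600 of 7638 peaks (47.1%), in 2650 genes, out of 59659 peaks in the 4 lists together. They are called polyA-only peaks below, and the remaining 4038 peaks of the same list are called shared polyA peaks. They were chosen by peak positions in the 4 lists, so their absence elsewhere is the rule and not a result.

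HEK-293T is a human embryonic kidney line that carries the SV40 large T antigen. The labels name no treatment or modification of the cells, and the series sets the chemical method beside an antibody method. Titles mark captured libraries as treated and inputs as control, which is read here as the capture step, since the treatment labels describe steps on RNA fragments alone. The m6A-ORL replicate 2 library, labelled polyA RNA, holds the polyA-only peaks. It is set against m6A-ORL replicate 1, labelled total RNA, and MeRIP replicates 1 and 2, both labelled polyA RNA. In m6A-ORL the RNA fragments were converted chemically at m6A, tagged with a biotin probe, bound to streptavidin beads and eluted with DTT, whereas in MeRIP they were bound by an antibody against m6A. The treatment text shared by all samples describes oligo(dT) selection, also for the library labelled total RNA, so RNA type and replicate cannot be told apart within m6A-ORL. Whether the replicates are separate cultures is not stated in the labels. The 3 input libraries were not analysed here.

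N6-methyladenosine is written on mRNA by a nuclear complex around METTL3 and METTL14, removed by ALKBH5 and FTO, and bound by the YTH proteins. The known pattern on mRNA is one of marked enrichment in long exons, around stop codons and in the 3′ untranslated region, within a short motif whose most used form is GGAC. Exon junctions are known to be poor in m6A, and ribosomal protein mRNAs are known to be lightly methylated in many cell types. An adenosine beside the cap can carry the related mark m6Am.

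The deposited lists held 7661, 11022, 20760 and 20216 peaks for polyA m6A-ORL, total m6A-ORL, MeRIP replicate 1 and MeRIP replicate 2, after 1, 2, 4 and 3 duplicate lines were removed. The files give no read depth, and precision is set by the number of peaks. Intervals in brackets are exact (Clopper-Pearson) 95% binomial intervals, which cover counting error only. Since 1 library holds all members, no test between samples was possible and none is given. Of 12 genes associated with HEK-293 cells, 11 had a peak in at least 1 list, with NEFM in none. Of 23 markers of other cell types, 6 did, among them COL1A1, COL3A1 and GFAP, and COL1A1 alone of the 6 had a polyA-only peak. The same rule left 4577 total-only m6A-ORL peaks (41.6% of that list outside the mitochondrial chromosome), 2821 peaks only in MeRIP replicate 1 (13.6%) and 2521 only in MeRIP replicate 2 (12.5%). Each MeRIP list was thereby also compared with a second list of the same method and RNA label, which the polyA m6A-ORL list lacked.

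Sequence could be shown for peaks that reached an annotated transcription start. The 6 best-scored polyA-only peaks of this kind are shown, chosen by score alone. They include 3 ribosomal protein genes and EIF1, a translation factor gene that had no MeRIP peak. Each line gives 30 bases before and 30 bases from the annotated start, with the bases inside the polyA-only peak in capitals (RefSeq, GRCh38.p14, plus strand in all 6).
RPLP1 (chr15:69452788-69452847): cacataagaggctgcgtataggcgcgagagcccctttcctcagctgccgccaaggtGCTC
EIF1 (chr17:41688855-41688914): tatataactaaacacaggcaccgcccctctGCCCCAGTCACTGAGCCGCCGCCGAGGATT
RPLP2 (chr11:809937-809996): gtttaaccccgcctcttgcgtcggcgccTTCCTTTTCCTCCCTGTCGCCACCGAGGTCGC
PCBP2 (chr12:53452072-53452131): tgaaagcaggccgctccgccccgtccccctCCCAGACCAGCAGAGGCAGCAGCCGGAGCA
RPS21 (chr20:62387073-62387132): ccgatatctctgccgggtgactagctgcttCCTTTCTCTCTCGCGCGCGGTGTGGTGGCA
FTL (chr19:48965279-48965338): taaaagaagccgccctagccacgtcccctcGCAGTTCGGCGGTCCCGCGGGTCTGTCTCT

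RPLP1 and RPLP2 encode the acidic stalk proteins of the large ribosomal subunit, RPS21 a small-subunit protein, EIF1 a factor of start-codon selection, PCBP2 a poly(C)-binding protein and FTL the ferritin light chain. In RPLP1, RPLP2 and RPS21 the first 5 transcribed bases were all C or T, the feature by which mRNAs of the translation machinery are known (a 5′ terminal oligopyrimidine tract). The RPLP1 peak began downstream of the annotated start and covered 24 of the first 50 bases, whereas the RPLP2 peak covered all 50. Peaks of EIF1, PCBP2, RPS21 and FTL began exactly at the annotated first base.

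Polypyrimidine starts were counted over all annotated starts whose first 50 bases met a peak on the same strand. Of 213 starts met by polyA-only peaks, 25 (11.7%, 7.74 to 16.8) opened with 5 bases that were all C or T. The share was 7.10% (4.55 to 10.5) of 324 starts met by shared polyA peaks, 7.32% of 669 met by total-only peaks and 4.57% of 1443 met by MeRIP replicate 1 peaks, against 5.17% of all 35116 annotated starts. A first base of C was found at 20.7% (15.4 to 26.7) of the polyA-only starts and 12.7% (9.24 to 16.8) of the shared polyA starts, against 14.7% of all starts. The letters GGAC stood in the first 50 bases of 18.3% (13.4 to 24.2) of polyA-only starts and 16.7% (12.8 to 21.2) of shared polyA starts, against 18.9% of all starts. Their reverse complement, GTCC, stood in 21.1% (15.8 to 27.2) of polyA-only starts and 15.1% (11.4 to 19.5) of shared polyA starts, against 17.6% of all. The intervals of the polyA-only and shared polyA starts overlapped for each of these 4 features.

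PolyA-only peaks differed from the rest of their list in block count, the number of genomic pieces of a peak. Pieces are normally separated by an intron, so a peak with more than 1 block is one drawn across at least 1 exon junction. More than 1 block was found in 1333 of the polyA-only peaks (37.0%, 35.4 to 38.6) and in 793 of the shared polyA peaks (19.6%, 18.4 to 20.9), and these intervals did not overlap. Of the polyA-only peaks, 1050 had 2 blocks (29.2%), 232 had 3 (6.44%), 40 had 4, 9 had 5 and 2 had 6. Of the shared polyA peaks, 619 had 2 blocks (15.3%) and 127 had 3 (3.15%).

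Peaks confined to another single list had lower shares. More than 1 block was found in 14.8% (13.8 to 15.9) of total-only peaks, in 10.3% (9.18 to 11.5) of peaks only in MeRIP replicate 1 and in 9.04% (7.95 to 10.2) of those only in replicate 2. In the complete lists it was 9.91% for total m6A-ORL and 16.9% and 16.3% for MeRIP. Total-only peaks thus also lay above their complete list, whereas peaks only in 1 MeRIP list lay below theirs. Shared polyA peaks, at 19.6%, lay above each of these complete lists too, so a high share was not limited to polyA-only peaks. The gaps between blocks had a median of 600.5 nt (quartiles 173 to 2039) in polyA-only peaks and 607 nt (192.75 to 2050.25) in shared polyA peaks. Under 50 nt, too short for most introns, were 19 of 1680 gaps (1.13%) of polyA-only peaks and 17 of 1032 (1.65%) of shared polyA peaks. The smaller piece of a peak was often short, under 10 nt in 227 of the 1333 polyA-only peaks with several blocks (17%) and in 113 of the 793 shared ones (14.2%).

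PolyA-only peaks were also the narrower ones, which the rule favours, since a wider peak has more bases that can meet another list. Their median width, summed over blocks, was 121 nt (quartiles 90 to 180, range 57 to 835), against 151 nt for shared polyA peaks (91 to 238, range 58 to 1852). Single-list peaks were narrower in the other libraries too. The median was 120 nt for total-only peaks and 142 nt for the complete total m6A-ORL list. For each MeRIP replicate it was 91 nt for peaks only in that list and 211 nt for the complete list. Within each class of width the share with several blocks was higher in polyA-only peaks. Under 90 nt it was 18.2% of polyA-only peaks and 5.21% of shared polyA peaks, and at 240 nt or more it was 65.6% of polyA-only peaks and 37.1% of shared polyA peaks. Along the gene the gap between the kinds was not even. In the first 10% of the gene span 30.4% (182 of 598) of polyA-only peaks and 27.5% (218 of 794) of shared polyA peaks had several blocks. Between 50 and 90% of the span it was 46.1% of polyA-only peaks and 20.6% of shared polyA peaks, and in the last 10% it was 21.6% of polyA-only peaks and 10.6% of shared polyA peaks.

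**Figure D1:**
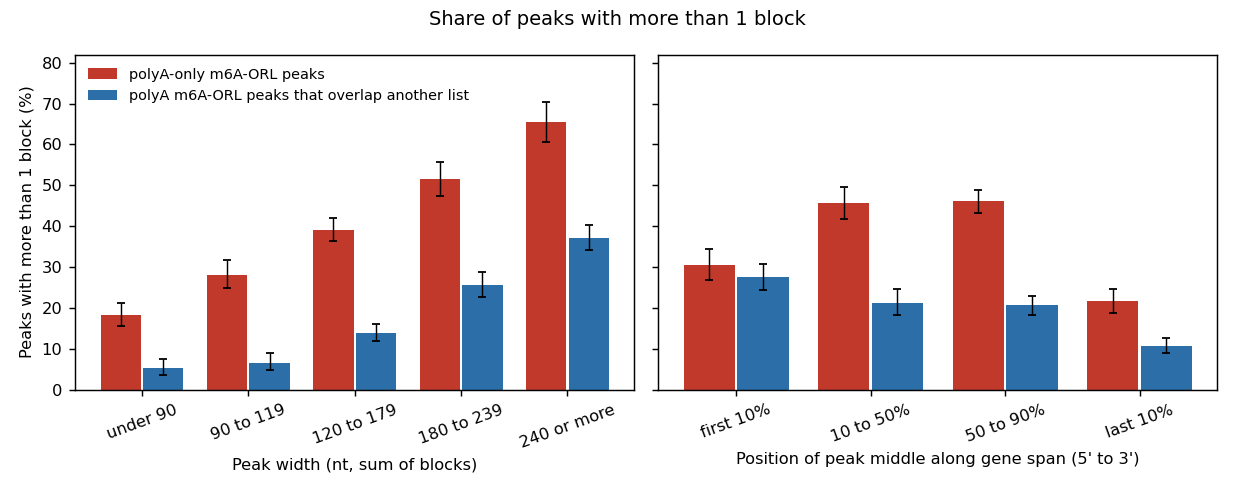
Share of peaks with more than 1 block (%, vertical axis) by peak width in nt (left) and by position of the peak's middle along the genomic span of its gene (right), for polyA-only peaks (red) and shared polyA peaks (blue), with exact 95% binomial intervals. Red exceeds blue in each width class, from 18.2% against 5.21% under 90 nt to 65.6% against 37.1% at 240 nt or more, while in the first 10% of the span the bars are close (30.4% and 27.5%).

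The difference was also present in genes that carried both kinds, with peaks pooled over genes and not compared gene by gene. In the 842 genes that carried both kinds, 544 of 1284 polyA-only peaks (42.4%) and 375 of 1430 shared polyA peaks (26.2%) had several blocks. Among genes with a span under 10000 nt it was 30.9% of polyA-only peaks and 16.1% of shared polyA peaks, and in genes of 50000 nt or more 34.4% of polyA-only peaks and 16% of shared polyA peaks. Among the better-scored 50% of the list 48.0% of polyA-only peaks and 27.3% of shared polyA peaks had several blocks, and among the worse-scored peaks 29.1% of polyA-only and 9.55% of shared polyA peaks did.

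The 2 polyA-only peaks with 6 blocks lay in NOC4L and NCLN, and of the 9 with 5 blocks the best-scored 3 lay in RAC3, TRABD and RUVBL2. The NOC4L peak had 6 blocks that summed to 506 nt over 1277 nt of genome (chr12:132151019-132152295, plus strand, score 1.3e-18). NOC4L encodes a nucleolar protein of small-subunit assembly, and both of its polyA-only peaks had several blocks, with no peak in the 3 other lists. The NCLN peak also had 6 blocks, 627 nt over 8508 nt (chr19:3196209-3204716, plus strand, score 3.2e-10). NCLN (nicalin, an endoplasmic reticulum membrane protein) had 3 peaks in each MeRIP list, the nearest 2752 nt away. The RAC3 peak, in a small GTPase gene with no peak in the other lists, had 5 blocks of 766 nt in all (chr17:82032325-82033880, plus strand, score 5e-16). RUVBL2, an AAA+ ATPase of chromatin remodelling and assembly complexes, had 3 polyA-only peaks, all with several blocks, and the longest ran over 5909 nt of genome.

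Position was measured as the place of a peak's middle on the genomic span of its gene, introns included, for the 3303 polyA-only peaks (91.8%) whose gene could be named. The middle 80% of the span held 56.9% (55.2 to 58.6) of polyA-only peaks and 48.1% (46.5 to 49.7) of shared polyA peaks. The last 10% held 825 polyA-only peaks (25.0%, 23.5 to 26.5) and 30.5% (29.1 to 32) of shared polyA peaks. It held 22.6% of total-only peaks and 31.2% of the complete total m6A-ORL list. For MeRIP replicates 1 and 2 it held 33.2% and 31.3% of peaks only in that list, and 36.2% and 36.0% of the complete lists. A lower share at the 3′ end was thus common to the single-list peaks of all libraries. The first 10% held 598 polyA-only peaks (18.1%, 16.8 to 19.5) and 21.3% (20 to 22.7) of shared polyA peaks. It held 23.1% of total-only peaks and 17.3% of the complete total m6A-ORL list. For MeRIP replicates 1 and 2 it held 18.4% and 23.3% of peaks only in that list, and 15.8% and 16.2% of the complete lists. Without m6A-ORL replicate 1 among the lists compared, the share in the first 10% was 20.3%.

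The larger share in the middle was seen among peaks with several blocks. Of these, 70.6% (67.9 to 73.1) of the polyA-only and 52.5% (48.7 to 56.2) of the shared polyA peaks lay in the middle 80% of the span. Among 1-block peaks it was 48.9% (46.7 to 51.0) of the polyA-only and 47.1% (45.3 to 48.9) of the shared polyA peaks, with overlapping intervals. Within 300 nt of the 5′ end of the span lay 11.1% (10.1 to 12.3) of polyA-only peaks and 12.4% (11.3 to 13.5) of shared polyA peaks, whereas 34.7% (33.2 to 36.2) of total-only peaks did. Within 1000 nt of the 3′ end lay 15.0% (13.8 to 16.3) of polyA-only and 17.7% (16.4 to 18.9) of shared polyA peaks. Exons, introns and untranslated regions were not analysed here.

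**Figure D2:**
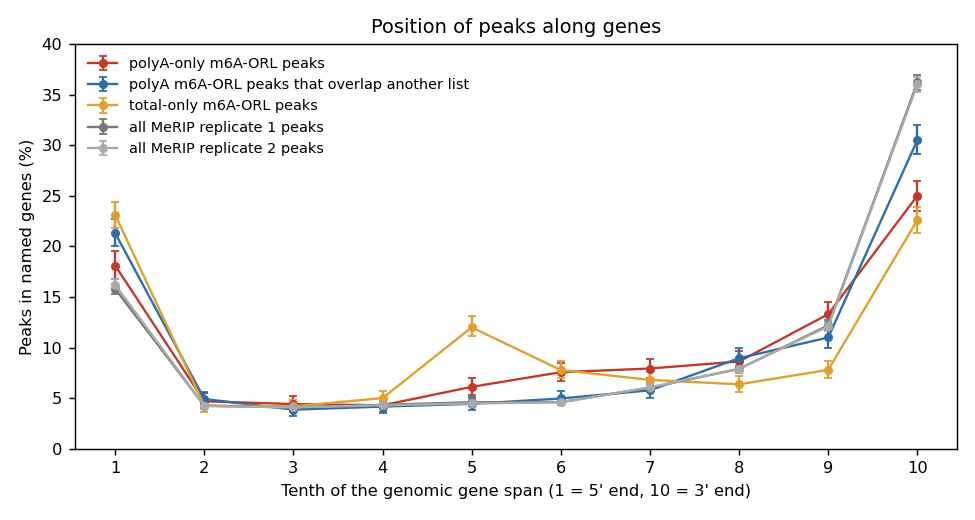
Share of peaks (%, vertical axis) by 10% steps of the genomic gene span from 5′ to 3′ (horizontal axis), for 5 sets of peaks in named genes, with exact 95% binomial intervals. PolyA-only peaks (red) have 25.0% in the last 10%, against 30.5% of shared polyA peaks and 22.6% of total-only peaks. The complete MeRIP lists have 36.2% and 36.0%.

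Most polyA-only peaks lay in genes that were listed by other libraries too, but at another place. Of the 2650 genes, 1797 (67.8%, 66.0 to 69.6) had a peak in a MeRIP list, 1288 (48.6%) a peak in the total m6A-ORL list and 842 (31.8%) a shared polyA peak. The nearest base of another list was a median of 3235 nt away (quartiles 570.75 to 13572). It was within 100 nt for 292 polyA-only peaks (8.11%) and within 1000 nt for 1158 (32.2%). For the 2499 polyA-only peaks whose gene had a MeRIP peak, the nearest of these lay a median of 3468 nt away from middle to middle. The polyA-only peak was on its 5′ side in 1424 cases (57.0%, 55.0 to 58.9). MeRIP peaks as a whole lay more often in the last 10% of the span (36.2% and 36.0%) than polyA-only peaks (25.0%). The part of this in the 57.0% was not tested, and the same share was not counted for other peaks. At the edge of the rule, 6 polyA-only peaks had another list's peak within 10 nt, with a median width of 165 nt, and 143 (3.97%) had one within 50 nt. Small distances recurred at fixed values, such as 29 nt in FLNA, PTBP1 and GAPDH, so the 10 nt window undercounts near misses. Just outside the rule, 159 shared polyA peaks were covered over at most 10 nt in every list, with a median width of 120 nt, and 25 overlapped on the opposite strand only.

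No peak of any other list was found for 612 of the 2650 genes (23.1%, 21.5 to 24.7), which held 769 polyA-only peaks (21.4%, 20 to 22.7). The same share was 20% (18.5 to 21.5) of peaks only in MeRIP replicate 1, 21.8% (20.2 to 23.4) of those only in replicate 2 and 48.2% (46.7 to 49.7) of total-only peaks. This share depended on the total m6A-ORL list: without m6A-ORL replicate 1 it was 32.4% of the then 3952 peaks. Of the 519 such genes with a name, 463 (89.2%) were protein-coding, 32 (6.17%) pseudogenes and 22 (4.24%) long noncoding RNAs.

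One polyA-only peak was found in 2015 genes (76.0%), 2 in 444 (16.8%) and 3 or more in 191 (7.21%, 6.25 to 8.26). By the same rule 3 or more occurred in 2.02% of the genes of total-only peaks and in 1.68% and 1.99% of the genes of peaks only in MeRIP replicates 1 and 2. For MeRIP the rule also removed peaks shared with the other replicate, whereas polyA m6A-ORL had no replicate with its RNA label. Peaks can be counted under several gene IDs. In all, 208 polyA-only peaks (5.78%) overlapped another one on the same strand under another ID, 167 (4.64%) overlapped one on the opposite strand, and the 3600 peaks made up 3411 separate loci.

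FASN, the fatty acid synthase gene (ENSG00000169710, chr17:82078338-82098236, minus strand), had the most, with 13 polyA-only peaks among 15 polyA m6A-ORL peaks. The total m6A-ORL list had 2 peaks there and each MeRIP list had 1, at the 5′ end, whose last block ended 1836 nt from the annotated start. The polyA-only peaks of FASN began at 34.0% of the span and ran to 98.1%, 91 to 481 nt wide, and 7 of the 13 had several blocks. Their scores ran from 3.2e-34 to 0.00047, and their distances to the nearest other peak from 181 to 10185 nt.

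FLNA, which encodes the actin cross-linker filamin A (ENSG00000196924, chrX:154348531-154374634, minus strand), had 10 polyA-only peaks among 14, set between the 3 total m6A-ORL peaks and the 5 peaks of each MeRIP list. One of them lay 29 nt from a MeRIP peak and the farthest 2518 nt from any other list. Other genes among the 10 with the most polyA-only peaks were INTS1, CPSF1, PTBP1, SMARCA4, STRN4 and HCFC1, with 6 to 8 each. SMARCA4, the gene of the chromatin remodelling ATPase BRG1, had 6 between 26.4 and 96.1% of its span, of which 4 had several blocks, beside 5 and 4 MeRIP peaks. PTBP1, a splicing repressor gene, had 6, of which 1 had several blocks. HCFC1, a transcriptional coregulator gene, had 6 among 13 polyA m6A-ORL peaks, between 29.6 and 93.5% of its span.

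Several genes with many polyA-only peaks had none in the other lists. INTS1, the largest subunit of the Integrator complex (ENSG00000164880, chr7:1470277-1504389, minus strand), had 8, between 11.8 and 93.8% of its span, and 7 of them had several blocks. CPSF1, a subunit of the factor that recognises the polyadenylation signal (ENSG00000071894, chr8:144393231-144409335, minus strand), had 7, of which 6 had several blocks. STRN4, a striatin-family scaffold gene (chr19:46719511-46746450, minus strand), had 6, all in the 3′ part between 58.0 and 95.5% of its span. SLC25A1, the mitochondrial citrate carrier gene (chr22:19175581-19178736, minus strand), had 6 between 3.2 and 94.3% of its short span, and another list's peak was 763 nt from the nearest of them. RPS2, TRIM28, NONO, SPINDOC and NID1 were also among the 10 such genes with the most, and 100 named genes had 2 or more polyA-only peaks and no other peak.

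TRIM28, a corepressor recruited by zinc finger repressors (chr19:58544064-58550715, plus strand), had 5 from 9.22 to 98.8% of its span, with scores down to 1.3e-14. NONO, a paraspeckle RNA-binding protein gene (chrX:71283635-71301168, plus strand), had 4, of which 3 had 3 blocks each. The nearest peak of another list was 29695 nt or more from each of them. NID1, the basement membrane protein nidogen, had 4 and SPINDOC 4.

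**Figure D3:**
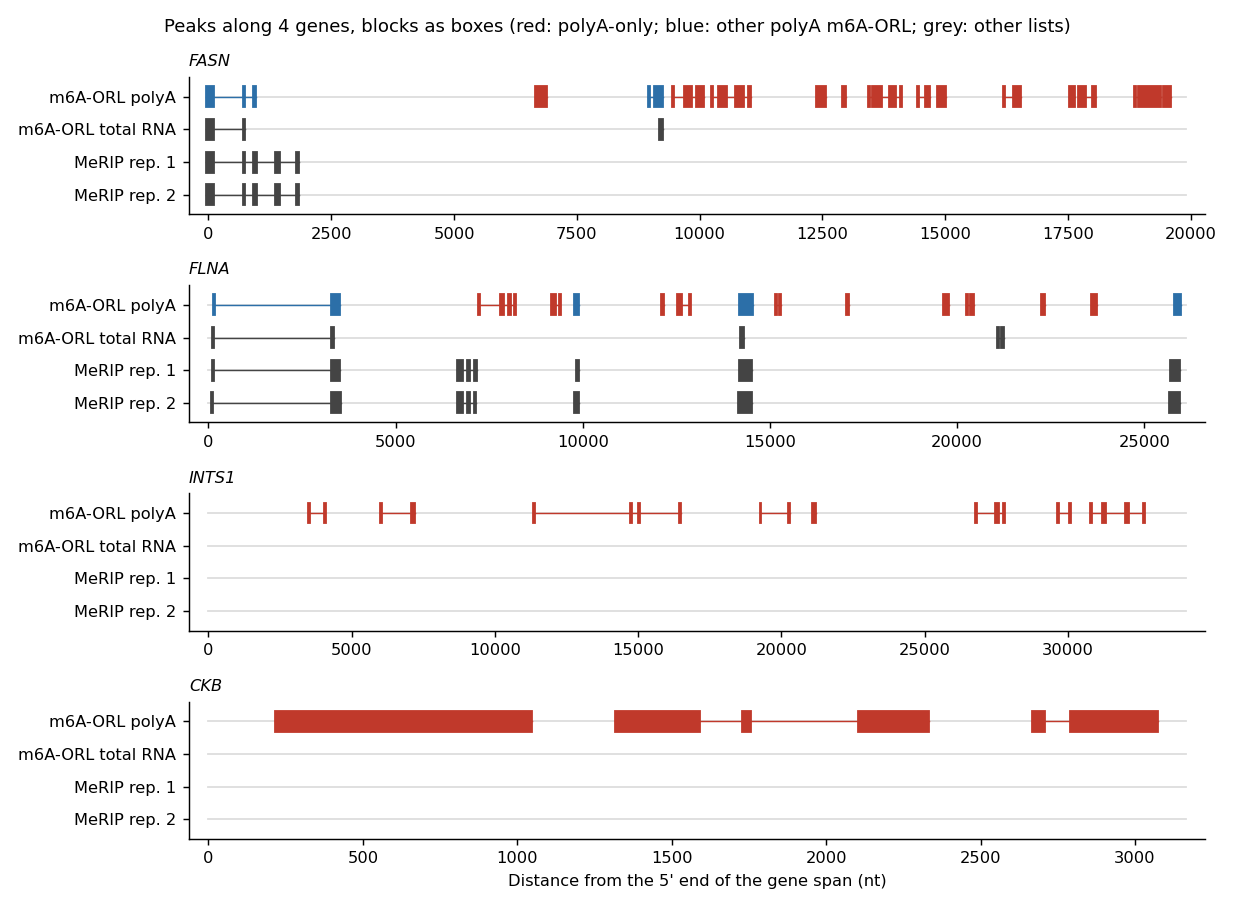
Peaks along FASN, FLNA, INTS1 and CKB, with blocks as boxes joined by lines, against distance from the 5′ end of the gene span (nt), 1 row per library. PolyA-only peaks (red) fill the 3′ part of FASN, lie between the peaks of other lists in FLNA, and are the sole peaks in INTS1 (8) and CKB (3).

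The score is the authors' value per peak, which lies between 0 and 0.0081 over the 4 lists and is read as a p-value or q-value, lower being stronger. It is used to rank peaks within a list, here the polyA list. Weak peaks were more often polyA-only. In the best-scored 10% of the list 217 of 764 peaks (28.4%, 25.2 to 31.7) were polyA-only, and in the worst-scored 10% of it 461 of 763 (60.4%, 56.8 to 63.9), against 47.1% in all. The median score was 3.4e-05 for polyA-only peaks and 7.4e-06 for shared polyA peaks. Peak width moved with it, with a median of 298 nt in the best-scored 10% and 61 nt in the worst, and its part in the share of polyA-only peaks was not tested.

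Even so, some of the strongest peaks of the list were polyA-only. CKB, the brain-type creatine kinase gene (ENSG00000166165, chr14:103519667-103522830, minus strand), had 3 polyA-only peaks with scores of 1e-160, 1e-117 and 6.3e-59, and no peak in any other list. These had 3, 1 and 2 blocks and were 537, 835 and 329 nt wide, and the second was the widest polyA-only peak. The nearest peak of another list was 3499 nt or more from each of them. RPLP1, described above, had 1 peak of 299 nt with a score of 1e-132, and the nearest peak of another list was 180896 nt away.

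EIF1 had 1 peak of 240 nt with a score of 5e-90, and the total m6A-ORL list had a peak in the same gene, 1927 nt away. RPLP2 had 1 peak of 3 blocks and 507 nt with a score of 2.5e-68, 211 nt from the nearest peak of another list. PABPC1, the main cytoplasmic poly(A)-binding protein gene, had a peak of 538 nt near its 5′ end (2.35% of the span) with a score of 2.5e-58. In ATP5MF, an ATP synthase subunit gene, a 3-block peak with a score of 7.9e-50 ran past the 3′ end of the annotated span.

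Another of the 10 best-scored peaks, under the ID ENSG00000269968 on the minus strand (chr12:6537794-6538258, score 1.3e-63), lay opposite the end of GAPDH. GAPDH itself, on the plus strand, had a polyA-only peak at chr12:6537851-6538254 with a score of 1e-49. The nearest total m6A-ORL peak was 25 nt from the ENSG00000269968 peak and 29 nt from the GAPDH peak. The sources used here do not say whether peaks were called by strand, so reads of these 2 loci cannot be told apart.

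The chromosomes with most polyA-only peaks were 19, 1 and 17. Chromosome 19, which is dense in genes, held 516 (14.3%, 13.2 to 15.5) of polyA-only peaks and 533 (13.2%, 12.2 to 14.3) of shared polyA peaks, with overlapping intervals. It held 5.05% (4.43 to 5.72) of total-only peaks and 8.85% and 8.67% of the peaks of MeRIP replicates 1 and 2. Chromosome 1 held 339 polyA-only peaks (9.42%) and chromosome 17 held 327 (9.08%). Of the chromosome 19 peaks, 45.5% of the polyA-only and 26.5% of the shared polyA peaks had several blocks, and on the other chromosomes it was 35.6% of polyA-only and 18.6% of shared polyA peaks.

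Within the polyA list the interval of the polyA-only share left out the overall 47.1% on chromosomes X, 11 and 16. On chromosome X 151 of 271 polyA m6A-ORL peaks were polyA-only (55.7%, 49.6 to 61.7), in 98 genes. They included 10 in FLNA, 6 in HCFC1, 5 in MED12, a Mediator subunit gene, and 4 each in NONO and the ubiquitin ligase gene HUWE1. On chromosome 11 it was 242 of 462 (52.4%, 47.7 to 57.0) and on chromosome 16 it was 219 of 573 (38.2%, 34.2 to 42.3). No polyA-only peak lay on chromosome Y (interval up to 0.102%), where the polyA list had only 1 peak, so this absence says little.

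**Figure D4:**
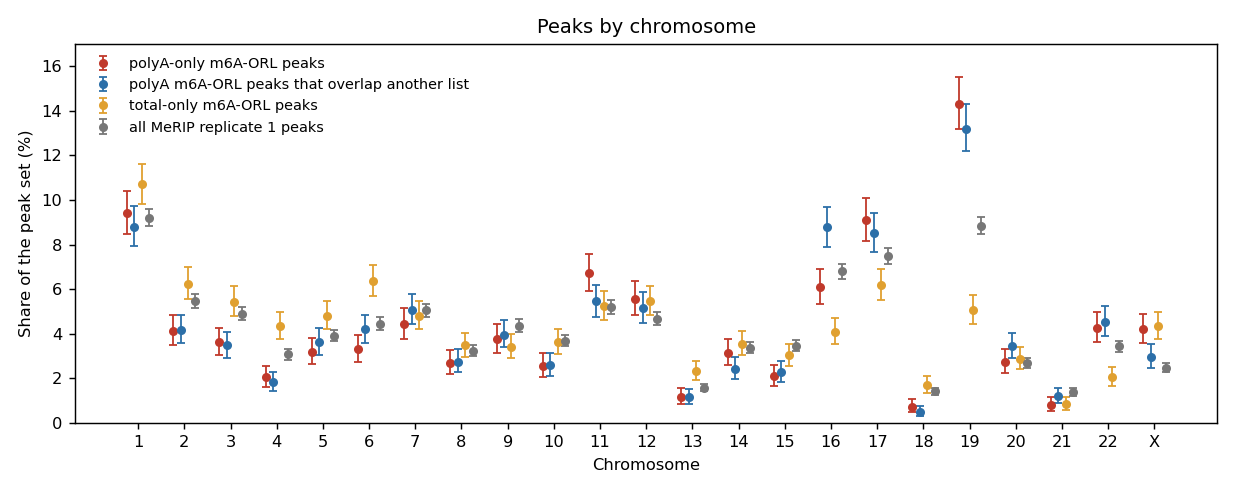
Share of each peak set (%, vertical axis) by chromosome (horizontal axis), with exact 95% binomial intervals, for polyA-only peaks (red), shared polyA peaks (blue), total-only peaks (yellow) and all MeRIP replicate 1 peaks (grey). On chromosome 19 the polyA-only (14.3%) and shared polyA (13.2%) sets lie close together, above MeRIP replicate 1 (8.85%) and total-only peaks (5.05%).

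By type of gene, 3186 of the 3303 polyA-only peaks in named genes lay in protein-coding genes (96.5%, 95.8 to 97.1), as did 96.8% (96.2 to 97.3) of shared polyA peaks and 75.8% (74.4 to 77.1) of total-only peaks. Pseudogenes held 52 (1.57%, 1.18 to 2.06) of polyA-only and 0.860% (0.589 to 1.21) of shared polyA peaks, but 19.2% (18 to 20.5) of total-only peaks. Long noncoding RNAs held 62 polyA-only peaks (1.88%, 1.44 to 2.40) and 2.31% (1.85 to 2.85) of shared polyA peaks, against 6.18% and 6.36% in the MeRIP lists. In all sets, naming favoured protein-coding genes where an ID had several candidates.

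Function was described with 19 gene lists. Each is given as the number of its genes with a polyA-only peak out of those with any polyA m6A-ORL peak, beside 2403 of 4030 over all named genes (59.6%). A gene with more peaks in the list has more chances to hold a polyA-only one, and expression was not measured here, so these shares describe the lists and test nothing. The share of peaks with several blocks was higher in polyA-only than in shared polyA peaks in 12 of the 18 lists that held both kinds, lower in 4 and equal in 2. Reads of ribosomal protein and histone genes can match near-identical copies, and the sources used here do not say how the authors treated such reads.

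The translation machinery lay above the share of all genes. Cytosolic ribosomal proteins had polyA-only peaks in 43 of 50 genes (86.0%, 73.3 to 94.2), with 64 polyA-only peaks and 14 shared polyA peaks, and 12 of the 43 genes had no peak in another list. Of those 64 peaks, 12 lay in the first 10% of the span, 42 in the middle 80% and 10 in the last 10%. RPS2 (chr16:1962058-1964826, minus strand) had 5, with scores of 5e-43 to 0.00071, and no peak in the other lists. RPL3 had 5 polyA-only peaks beside 1 peak in each of the other lists, and RPS4X, on chromosome X, and RPS15 had 3 each beside 1 total m6A-ORL peak and no MeRIP peak.

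Translation initiation and elongation factors had them in 28 of 32 genes (87.5%, 71.0 to 96.5), where 18 of 35 polyA-only and 23 of 37 shared polyA peaks had several blocks. PABPC4, another cytoplasmic poly(A)-binding protein gene, had 3 polyA-only peaks and no other peak, and EEF2, the translocation factor, had 2 of its 5 polyA m6A-ORL peaks, with a score down to 4e-26. EEF1A2, a tissue-restricted form of elongation factor 1A, and EEF1D, a subunit of its exchange factor, had 2 each. Aminoacyl-tRNA synthetases had them in 10 of 13 genes (76.9%, 46.2 to 95), with 3 each in VARS1 and MARS1 and 2 each in WARS1 and QARS1. In these synthetases 1 of 16 polyA-only peaks and 8 of 11 shared polyA peaks lay in the first 10% of the span.

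Proteasome and ubiquitin genes had polyA-only peaks in 12 of 13 genes (92.3%, 64 to 99.8), with 2 each in UBA1, the main ubiquitin-activating enzyme, and in PSMC3, PSMD3 and PSMC5, subunits of the proteasome cap. Chaperones had them in 11 of 21 genes (52.4%, 29.8 to 74.3). Among these HSP90AB1 and CANX (calnexin) had 2 each with no peak in the other lists, DNAJA1 had 2, and HSP90AA1 had 1 with a score of 3.2e-32.

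Of metabolic genes, glycolytic enzymes had polyA-only peaks in 8 of 11 genes (72.7%, 39.0 to 94.0), where 6 of 19 polyA-only and 4 of 8 shared polyA peaks had several blocks. PKM (pyruvate kinase) had 4, the best with a score of 2e-34 at 99.7% of its span, where the nearest other peak was 31833 nt away. GAPDH, GPI and PFKL had 3 each. Respiratory chain and ATP synthase genes of the nuclear genome had them in 13 of 21 (61.9%, 38.4 to 81.9), with 2 each in NDUFA11, a complex I subunit, and UQCRC1, a complex III subunit, and 1 each in COX5A and CYC1.

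Genes of RNA and chromatin followed. Splicing factors and hnRNPs had polyA-only peaks in 29 of 41 genes (70.7%, 54.5 to 83.9), with 6 in PTBP1, 4 in NONO, 4 of 13 polyA m6A-ORL peaks in SRRM2, a nuclear speckle protein, and 3 in U2AF2, the large subunit of the 3′ splice site factor. Chromatin regulators had them in 30 of 37 genes (81.1%, 64.8 to 92.0), where 30 of 61 polyA-only and 23 of 108 shared polyA peaks had several blocks. SMARCA4 and HCFC1 had 6 each and TRRAP, a scaffold of acetyltransferase complexes, had 4. Nucleolar and ribosome assembly genes had them in 10 of 14 (71.4%, 41.9 to 91.6), with 4 each in NOC2L and BOP1 and 1 each in MYBBP1A and PES1.

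The machinery of m6A itself had polyA-only peaks in 6 of 13 genes (46.2%, 19.2 to 74.9), and 9 polyA-only peaks beside 23 shared polyA peaks. ZC3H13, a subunit of the writer complex, had 2 of 7, and MAT2A, which makes the methyl donor S-adenosylmethionine, had 2 beside peaks in all other lists. Of these MAT2A peaks, 1 lay 118 nt from a total m6A-ORL peak and the other 1265 nt from a MeRIP peak. YTHDC1, the nuclear reader, had 1. FMR1, whose protein also binds m6A-marked mRNA, had 2, with no other list's peak within 62512 nt.

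Actin, tubulin and cytoskeleton genes had polyA-only peaks in 20 of 27 (74.1%, 53.7 to 88.9), 43 peaks in all, with 10 in FLNA, 6 in DYNC1H1, the dynein heavy chain, and 3 each in SPTAN1 and TPM4. Very large coding genes had them in 15 of 20 (75%, 50.9 to 91.3), where 23 of 44 polyA-only and 11 of 52 shared polyA peaks had several blocks. The name of this list does not stand for genomic span. FASN, which is in it, spans 19899 nt, under the median of 27768 nt for named genes with a polyA-only peak. CAD, the enzyme of the first steps of pyrimidine synthesis, had 5 polyA-only peaks and no MeRIP peak, and HUWE1 had 4.

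At the other end, immediate early and short-lived transcription factor genes had a polyA-only peak in 1 of 14 genes (7.14%, 0.181 to 33.9). This was ATF3, with 1 peak of 91 nt and a score of 5e-05, beside 29 shared polyA peaks in the list. ZNF genes, a list of zinc finger protein genes, had them in 26 of 72 (36.1%, 25.1 to 48.3), with 2 in ZNF444 and 1 each in ZNF598, ZNF239 and ZNF18. In the last 10% of the span lay 6 of their 27 polyA-only peaks and 36 of their 80 shared polyA peaks. Nuclear long noncoding and host RNAs had them in 4 of 8 (50%, 15.7 to 84.3), with 1 each in MALAT1, SNHG32, SNHG17 and SNHG12.

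Replication histones had polyA-only peaks in 6 of 7 genes (85.7%, 42.1 to 99.6), with 1 each, although their main mRNAs are known to lack a poly(A) tail. H2AC16, H4C8 and H4C1 had no peak in the other lists. H2AC11 had 1 in the total m6A-ORL list, and the nearest peak of that list was 89 nt from its polyA-only peak. Genes associated with HEK-293 cells had a polyA-only peak in 2 of 7 (28.6%, 3.67 to 71.0), VIM (vimentin) and NEFL (neurofilament light chain). The COL1A1 peak, in the 1 gene with a polyA m6A-ORL peak among markers of other cell types, was 61 nt wide with a score of 0.0002, beside 8 total m6A-ORL peaks, 0 in MeRIP replicate 1 and 1 in replicate 2.

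**Figure D5:**
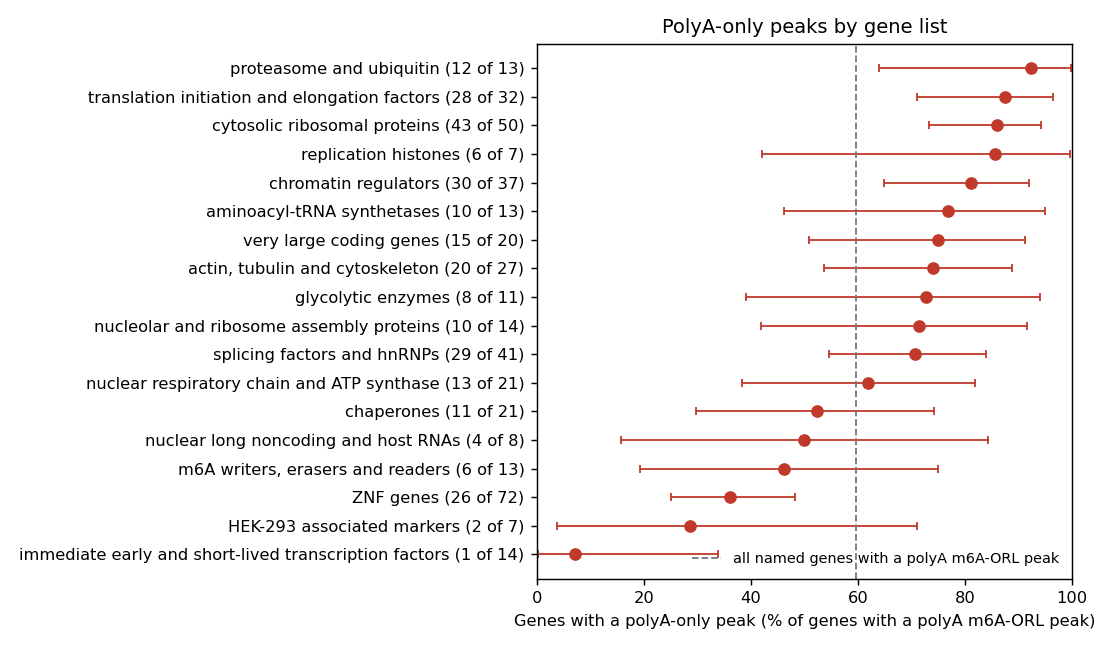
Share of genes with a polyA-only peak (%, horizontal axis) among the genes of each list that have any polyA m6A-ORL peak, for the 18 lists with at least 5 such genes, with exact 95% binomial intervals. The dashed line is the share over all named genes (59.6%), and the lists run from proteasome and ubiquitin (92.3%) down to immediate early genes (7.14%).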

How the data were processed

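Peaks were listed for 4 captured RNA libraries, 1 list each. Per the file headers, the deposited BED tables give each peak's position, strand, block count and block positions, with an Ensembl gene ID and a score. This deposited score behaves like a p-value or q-value by its range. The sources used here name neither which of them it is nor the peak caller, the control library or the threshold. Per the submitters' processing notes, Trim Galore, STAR, HOMER and hg38 are named, with no role or version. It is also not stated whether each library was called alone.

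Exact duplicate lines were removed and blocks were compared by position in Python 3.11.15 with pandas 2.3.3, numpy 2.4.6, scipy 1.17.1 and matplotlib 3.10.9. A peak was polyA-only when no base of its blocks lay in a block of another list on either strand. The overlap search was tested on simulated data. Names were assigned by position, since the RefSeq gene table (GRCh38.p14, the same build) carries no Ensembl IDs. An ID took the name of the gene whose span held at least 90% of its peak bases, or 50% where none did. Where several IDs claimed the same gene, an ID with at least 3-fold more peak bases took it. Where an ID had several candidate genes, read-through genes were dropped first. The choice was then made by elimination, by a known strand, and by being the only protein-coding candidate, which favours protein-coding names. This named 11592 of 13566 IDs (85.4%). A further 1215 stayed ambiguous and 759 lay in no span. Overlapping genes can be misnamed. The gene table gives no exons, and strand came from the RefSeq promoter table.

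The genes named were the 10 with the most polyA-only peaks, those of the 10 best-scored and the 5 peaks with the most blocks (ties by score), up to 4 in each gene list, and the 10 with the most among genes with no other peak. The 6 promoters were the best-scored met by a polyA-only peak. Some genes that these rules pick are not reported here. The genes listed for chromosome X were chosen after their values were seen. The members, lists and rules were chosen with earlier results of these data known. Shares carry exact 95% intervals, no test was run, and 11 alternatives were tried.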

Additional observations from a re-analysis of the deposited data

Results flagged for a closer look

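The rule left out the mitochondrial chromosome. The polyA m6A-ORL list held 23 peaks there, the total m6A-ORL list held 32, and both MeRIP lists held 0. Of the 23, 5 overlapped no peak of another list, so that polyA-only peaks would number 3605 with them. These peaks stand here because they lie outside the comparisons of the report and have no counterpart in the MeRIP lists.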

How the results depend on the processing

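Across 11 alternatives and 8 results, 75 of 88 values stayed within the tolerance and 13 did not. The tolerance was 1.5 times for a count and the 95% interval of the reported value for a share or a median. Among the better-scored 50% of the polyA list there were 1514 polyA-only peaks in 1221 genes, with 48.0% of several blocks, 17.3% on chromosome 19 and a median width of 180 nt. Comparing with the better-scored 50% of each other list gave 20.1% in the first 10% of the span and 37.7% in genes with no peak elsewhere. The share in genes with no peak elsewhere was 18.4% when 50% of a peak had to be covered to count as shared and 23.1% when a peak within 100 nt counted. Leaving out 1 of the other libraries gave 22.9 to 32.4% for this share and 18.3 to 20.3% for the first 10%, the highest in both without m6A-ORL replicate 1. Such removals gave 3744 to 3952 polyA-only peaks in 2745 to 2865 genes, 36.5 to 36.8% with several blocks, 13.7 to 14.4% on chromosome 19, 24.1 to 25.1% in the last 10% and a median width of 121 nt. The excess of peaks with several blocks over shared polyA peaks was 17.4 percentage points and ran from 16.4 to 21.6 over all alternatives. No paired analysis was possible because the members come from 1 library and no test was run. Read depth is unknown, and absence from a list is not absence of m6A.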
